A study of Homo sapiens with 2 samples.

Results

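The genes described here are 6 structured non-coding RNAs, RN7SK, RN7SL1, RN7SL2, RPPH1, RMRP and BCYRN1, and 4 genes of proteins that bind such RNAs, LARP7, MEPCE, HEXIM1 and SSB. The 10 genes were picked by name, with earlier results of these libraries known, out of 25702 genes in the count files, and all 10 were found there by symbol. K562 is a human erythroleukemia line that carries the BCR-ABL1 fusion, and cabozantinib (XL184) is a multikinase inhibitor whose targets include MET, AXL and the VEGF receptors. Asynchronous K562 cells in RPMI with serum were kept for 48 h with 1 µM cabozantinib or with the solvent DMSO, and 1 library was made per group, so replicate spread could not be measured.

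RN7SK encodes 7SK, a nuclear RNA that holds the kinase P-TEFb (CDK9 with cyclin T1 or T2) in an inactive complex. In that complex MEPCE caps the 5′ end of 7SK, LARP7 binds its 3′ end, and HEXIM1 inhibits the kinase. P-TEFb released from 7SK frees paused RNA polymerase II. RN7SL1 and RN7SL2 encode 7SL, the RNA core of the signal recognition particle (SRP), which targets nascent secretory and membrane proteins to the endoplasmic reticulum. RPPH1 and RMRP are the RNA parts of RNase P, which trims tRNA precursors, and of RNase MRP, which cuts ribosomal RNA precursors. BCYRN1, also called BC200, is a neuronal and tumour-associated RNA that shares its 5′ part with 7SL and Alu repeats. All of these RNAs are made by RNA polymerase III, and SSB, the La protein, binds the 3′ ends of new transcripts of that polymerase.

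The annotated RNA sequences (GENCODE 29, GRCh38, written with T) of RN7SK, RPPH1 and RMRP are shown because these are the RNAs, beside the 7SL pair, that were lower with cabozantinib. RN7SK (chr6:52995621-52995920, plus strand) and RPPH1 (chr14:20343108-20343407, minus strand) are longer than shown, and bases 1 to 300 of their 328 and 333 are printed, while RMRP (chr9:35657751-35658018, minus strand) is whole at 268 bases. Runs of AAAAA would be in capitals, and there are none.
RN7SK: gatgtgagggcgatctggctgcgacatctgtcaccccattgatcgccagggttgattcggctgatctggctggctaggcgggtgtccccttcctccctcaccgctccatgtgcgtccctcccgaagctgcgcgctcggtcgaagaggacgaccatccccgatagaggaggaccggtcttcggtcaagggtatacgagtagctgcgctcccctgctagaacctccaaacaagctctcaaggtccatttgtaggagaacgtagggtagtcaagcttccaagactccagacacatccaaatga
RPPH1: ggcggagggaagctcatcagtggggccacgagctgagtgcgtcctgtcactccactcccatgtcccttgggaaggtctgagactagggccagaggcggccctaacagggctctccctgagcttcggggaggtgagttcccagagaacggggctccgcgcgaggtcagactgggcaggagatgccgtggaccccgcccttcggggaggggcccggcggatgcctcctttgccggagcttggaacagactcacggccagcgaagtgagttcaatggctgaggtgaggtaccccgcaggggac
RMRP: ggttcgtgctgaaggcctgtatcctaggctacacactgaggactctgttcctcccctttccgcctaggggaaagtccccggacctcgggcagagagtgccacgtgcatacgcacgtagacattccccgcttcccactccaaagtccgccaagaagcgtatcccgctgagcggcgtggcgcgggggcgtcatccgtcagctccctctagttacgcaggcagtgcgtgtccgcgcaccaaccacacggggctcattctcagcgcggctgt

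The run of AAAAA was searched on the transcribed strand only and was absent from the whole of these 3 transcripts. Among 14341 GENCODE transcripts of 200 to 400 bases 39.7% held at least 1, so lacking the run is common. The 3 transcripts were picked because they were lower, and the search is not reported here for RN7SL1, RN7SL2 and BCYRN1. The absence is therefore not read as a trait of the lower RNAs. The longest run of A was 3 bases in RN7SK and RMRP and 2 in RPPH1.

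RN7SL1 and RN7SL2 were identical at 295 of 299 bases (98.7%), so reads of one can be counted for the other.

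In the cabozantinib library 5 of the 6 structured RNAs were called lower than in the DMSO library, by 3.42-fold to 5.73-fold, while none of the 4 protein genes was. The median log2 ratio, cabozantinib over DMSO, was -2.14 over the structured RNAs and 0.32 over the protein genes, a difference of -2.46. The call rule asked for a difference of 1.5-fold or more and for a 95% Clopper-Pearson (exact) interval of the count ratio that left out no change. These intervals cover counting error only. By that rule 12.3% of the 12536 measured genes were lower and 8.15% were higher, around a median log2 ratio of 0.01. A gene was called measured at 1 CPM (counts for each 1000000) or more in at least 1 library, and all 10 genes passed. RPPH1 passed only through DMSO (2.87 against 0.484 CPM), and the other 9 were at 1 CPM or more in both libraries. No p-value was computed, and nothing about chance is read from the counts of these genes, since they were chosen with this comparison known. Less RNA per cell and fewer cells with the RNA cannot be told apart.

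**Figure D1:**
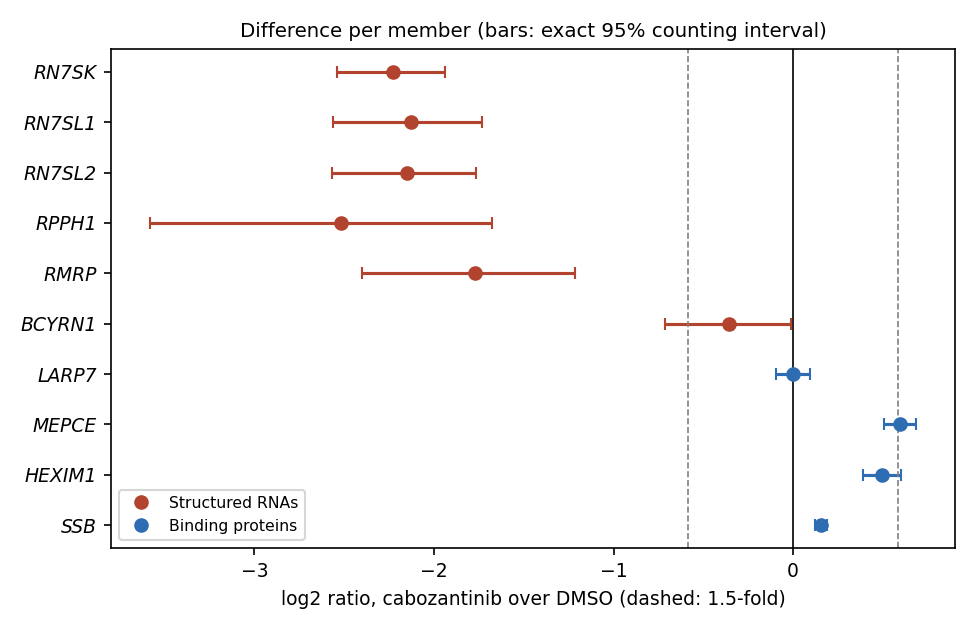
Log2 ratio of cabozantinib over DMSO for the 10 genes, 1 library per group, with bars for the exact 95% counting interval and dashed lines at 1.5-fold. The bars of 5 structured RNAs lie wholly below the lower dashed line, whereas BCYRN1 and the 4 protein genes lie nearer to 0 (log2 ratios -0.36 to 0.60).

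RN7SK had 543 counts in DMSO and 111 with cabozantinib, from 21.1 to 4.48 CPM. It was 4.69-fold lower (counting interval 3.83 to 5.82), and 0.957% of measured genes had a lower log2 ratio. RN7SK (Entrez 125050) is a single-exon non-coding gene at chromosome 6, 52860418 to 52860749, on hg19. Its nearest neighbour in the deposited annotation, GSTA4, starts 240 bases away on the opposite strand and had 56 and 43 counts. The log2 ratios of 581 other measured non-coding genes were set against that of RN7SK (-2.23) over the 2 libraries. The 3 closest were RNU1-2, a U1 spliceosomal RNA copy (-2.27), RN7SL2 (-2.15) and WASIR1, a long non-coding RNA (-2.32). RNU1-2 (1.05 against 0.202 CPM) and WASIR1 (2.91 against 0.565 CPM) passed the filter only through DMSO, so nothing is read from their likeness.

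RN7SL1, at chromosome 14, 50053298 to 50053596, went from 279 to 61 counts, which is 4.37-fold lower (3.32 to 5.90). RN7SL2, at chromosome 14, 50329269 to 50329567, had 302 and 65 counts, 4.44-fold lower (3.41 to 5.93). The gap between the log2 ratios of these 98.7% identical genes was -0.02 (counting interval -0.61 to 0.56). Reads of one can be counted for the other, so the pair are not separate measurements and nothing is read from the small gap. Summed, 7SL had 581 counts in DMSO and 126 with cabozantinib and was 4.42-fold lower (3.65 to 5.42).

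RPPH1 (chromosome 14, 20811230 to 20811570) had the fewest counts of the 10 genes, 74 in DMSO and 12 with cabozantinib. Its fold, 5.73-fold lower, was the largest of the set and the least precise (3.20 to 12.0). RMRP (chromosome 9, 35657748 to 35658015) had 115 and 32 counts, 3.42-fold lower (2.32 to 5.28). The log2 ratio of RMRP minus that of RPPH1 was 0.78 with an interval from -0.33 to 1.96, so these catalytic RNAs could not be separated at this depth. The genes on the opposite strand next to them, PARP2 beside RPPH1 and CCDC107 beside RMRP, had log2 ratios of -0.22 and 0.31 and were not called.

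BCYRN1, at chromosome 2, 47562454 to 47562653, had 163 counts in DMSO and 122 with cabozantinib. It was 1.28-fold lower (1.01 to 1.64), short of 1.5-fold, with an interval that barely excluded no change. Its log2 ratio exceeded that of RN7SK by 1.87 (1.41 to 2.34). BCYRN1 made up 11.0% of the summed counts of the 6 structured RNAs in DMSO and 30.3% with cabozantinib, and RN7SK 36.8% and 27.5%. All 6 together took 0.00590% of counts in DMSO (exact binomial 95% interval 0.00560% to 0.00621%) and 0.00158% with cabozantinib (0.00143% to 0.00174%). The 5 without BCYRN1 summed to 1313 and 281 counts, 4.49-fold lower (3.95 to 5.13).

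Among the proteins of the 7SK particle, MEPCE, the capping enzyme, had 1669 counts in DMSO and 2425 with cabozantinib, from 64.8 to 97.9 CPM. It was 1.51-fold higher (1.42 to 1.61), at the edge of the 1.5-fold rule. Scaled by total counts its log2 ratio was 0.51 and by the upper quartile 0.58, and it was then not called. HEXIM1, the inhibitor of P-TEFb, had 1261 and 1707 counts, 1.41-fold higher (1.31 to 1.52), and was not called. LARP7, which protects the 3′ end of 7SK, had 1831 and 1758 counts, or 71.1 and 71.0 CPM. Its log2 ratio was -0.00 (-0.10 to 0.09), and it was -0.09 with scaling by total counts and 0.01 with the trend over gene length removed. SSB had 12443 and 13324 counts, 1.11-fold higher (1.09 to 1.14).

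MEPCE lies on chromosome 7 at 100026413 to 100031749 and HEXIM1 on chromosome 17 at 43224684 to 43229468 (hg19). LARP7 lies on chromosome 4 at 113558120 to 113578742 and SSB on chromosome 2 at 170655389 to 170668575. No gene of the deposited annotation shared exon bases with the structured RNAs, MEPCE or HEXIM1. LARP7 shared 32 exon bases with ZGRF1 and SSB shared 102 with METTL5, both on the opposite strand, and the sources used here do not give the strand setting of the counting.

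Set side by side, the log2 ratio of each 7SK partner exceeded that of RN7SK by a wide margin against counting error. The excess was 2.83 for MEPCE (2.52 to 3.15), 2.73 for HEXIM1 (2.41 to 3.05), 2.39 for SSB (2.09 to 2.70) and 2.23 for LARP7 (1.92 to 2.55). Levels were compared between genes per length, as RPKM (CPM per kilobase of annotated exon). In DMSO, RN7SK stood at 63.5 RPKM, 2.17 times the level of the LARP7 mRNA (29.2 RPKM) and 6.21 times that of HEXIM1 (10.2 RPKM). With cabozantinib RN7SK stood at 13.5 RPKM, 0.463 times the level of LARP7 (29.2 RPKM) and close to HEXIM1 (14.4 RPKM). These are levels of sequenced fragments. The sources used here do not say whether poly(A) RNA was selected, and the levels do not give the copy number of 7SK against its partners in the cell.

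**Figure D2:**
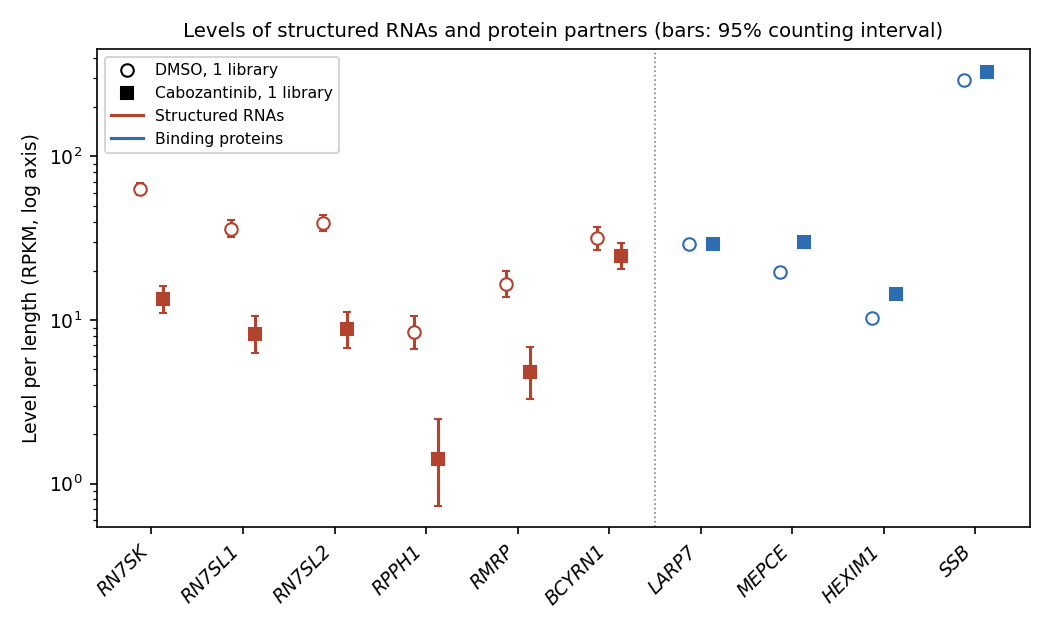
Level per length (RPKM, log axis) of each gene in the DMSO library (open circles) and the cabozantinib library (filled squares), with bars for the 95% Poisson counting interval. RN7SK stands at 63.5 RPKM in DMSO and at 13.5 RPKM with cabozantinib, there below MEPCE, LARP7 and BCYRN1, and SSB is highest in both libraries.

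In DMSO the order of levels began with SSB (294 RPKM), RN7SK (63.5 RPKM), RN7SL2 (39.2 RPKM), RN7SL1 (36.2 RPKM), BCYRN1 (31.6 RPKM) and LARP7. From RN7SL2 down to LARP7, each neighbour's counting interval overlapped the next. MEPCE (19.7 RPKM) and RMRP (16.7 RPKM) overlapped, as did HEXIM1 and RPPH1 (8.42 RPKM), the lowest. With cabozantinib the order was SSB (327 RPKM), MEPCE (29.8 RPKM), LARP7, BCYRN1 (24.6 RPKM), HEXIM1, RN7SK, RN7SL2 (8.78 RPKM), RN7SL1 (8.24 RPKM), RMRP (4.82 RPKM) and RPPH1 (1.42 RPKM). There the intervals of MEPCE, LARP7 and BCYRN1 overlapped in turn, and so did those from HEXIM1 to RMRP. BCYRN1, whose interval overlapped that of RN7SL1 in DMSO, was above both 7SL genes with cabozantinib.

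The authors' deposited table lists, for each gene, the posterior probability that its expression differed. In the authors' deposited table this score was 0.999996 for RPPH1 and 0.99986 for RMRP, and it rounded to 1 for RN7SK, RN7SL1 and RN7SL2. The authors' deposited table gave BCYRN1 a probability of 0.0228, MEPCE 0.107, HEXIM1 0.0419, LARP7 0.00379 and SSB 0.00202. Its shrunken fold for RN7SK in the authors' deposited table was 0.212, cabozantinib over DMSO, and that for HEXIM1 1.40. These values come from the same 2 libraries, 1 per group, so replicate spread could not be measured for them either.

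The called structured RNAs are short, and their log2 ratios followed their annotated length. BCYRN1, the shortest at 200 bases, had a log2 ratio of -0.36, RMRP (268 bases) one of -1.77, RN7SL1 and RN7SL2 (299 bases each) -2.13 and -2.15, RN7SK (332 bases) -2.23 and RPPH1 (341 bases) -2.52. The order rests on 6 genes from the same libraries, 2 of them near-identical, and adjacent values from RMRP up to RPPH1 overlap in their counting intervals. Among all 210 measured genes of at most 500 bases 13.3% were lower and 34.3% higher (median log2 ratio 0.26), but 74 of these 210 are snoRNA genes, most of them higher. Of the 130 short genes left without the snoRNA genes and the 6 structured RNAs 16.9% were lower and 14.6% higher (median 0.06). In the range from 200 to 400 bases, which holds all 6, 28.6% of the 42 other measured genes were lower and 16.7% higher (median 0.12). Both shares of lower genes are above the 12.3% of all measured genes, and both shares of higher genes are above the 8.15%. With the trend over gene length removed, the 6 structured RNAs had log2 ratios from -2.67 (RPPH1) to -0.80 (BCYRN1). The part of fragment length or RNA selection in the result was not tested.

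**Figure D3:**
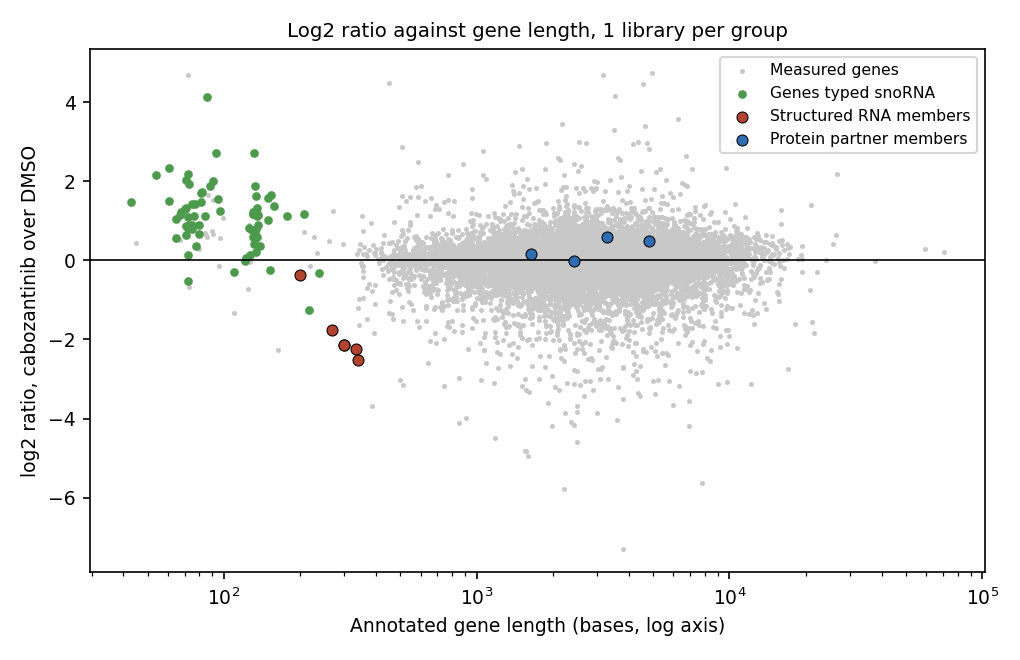
Log2 ratio of cabozantinib over DMSO against annotated gene length in bases (log axis) for all 12536 measured genes, with genes typed snoRNA in green, the structured RNAs in red and the protein partners in blue. The red points descend from -0.36 at 200 bases to -2.52 at 341 bases, while most green points lie above 0 (median 1.12).

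Other short structured RNAs did not share one direction. Of 74 measured genes typed snoRNA, which guide RNA modification and mostly lie in introns of host genes, 71.6% were higher and 1.35% lower (median log2 ratio 1.12). Of these 74, 35 passed the 1 CPM filter through the cabozantinib library only and so could hardly be lower. Of the 39 at 1 CPM or more in DMSO 24 were higher and 1 lower (median 0.79). The 1 lower snoRNA gene was SNORD3A, a copy of U3, the processing RNA of the small ribosomal subunit that has its own promoter, with 95 counts in DMSO and 38 with cabozantinib. It was 2.38-fold lower (1.63 to 3.60), and reads of its near-identical U3 copies cannot be placed with certainty. RNU1-2 had 27 and 5 counts, 4.81-fold lower (1.97 to 17.3). It passed the filter only through DMSO, at 1.05 CPM against 0.202 CPM with cabozantinib, so a gene at this line could hardly be other than lower and its call supports nothing. Over the 85 measured genes typed as snRNA, snoRNA, scRNA or related classes (BCYRN1 is typed as a long non-coding RNA there), 65.9% were higher and 8.24% lower. Of the 7 lower genes 5 were RN7SK, RN7SL1, RN7SL2, RPPH1 and RMRP. The other 2 were SNORD3A and RNU1-2. Those 5 were chosen with this comparison known, and RPPH1 passed the filter only through DMSO. Of the 85 genes, the 35 snoRNA genes that passed through cabozantinib only could hardly be lower. Nothing is therefore read from the 5 among the 7. Among 38 measured replication-dependent histone genes, whose mRNAs end without a poly(A) tail, 26.3% were lower and 0.0% higher (median log2 ratio -0.29).

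Few other RNAs of polymerase III could be read. Of 12 vault, Y, U6, U6atac and snaR RNA genes found in the files none was measured. Of these, 5 were at 0 in each library (a 0 allows up to 3 counts), and the 12 summed to 6 counts in DMSO and 10 with cabozantinib. The 17 genes of 5S ribosomal RNA, singled out after their values were seen, summed to 21 counts in DMSO and to 3 under the drug, a ratio of 5.91-fold lower (2.01 to 35.2). Of 22 structured RNA genes of polymerase II only SNORD3A (3.69 and 1.53 CPM) and RNU1-2 were measured, and all 22, with no filter, summed to 190 and 75 counts. TERC, the telomerase RNA, had 1 count in each library.

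In 12 lists of genes related to these RNAs 100 genes were measured, of which 7 were higher and 3 lower by the 1.5-fold rule, against 8.15% and 12.3% of all measured genes. The 3 lower ones were the RNAs SNORD3A and RNU1-2 and the gene SNAPC1. None of the P-TEFb genes was called. CDK9, the kinase, had 1398 and 1584 counts and a log2 ratio of 0.24 (0.13 to 0.34). CCNT1, its main cyclin, had 887 and 997 counts (0.23, 0.09 to 0.36), CCNT2 a log2 ratio of 0.29, and HEXIM2, the second inhibitor, only 59 and 50 counts (-0.18, -0.76 to 0.39).

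Of 20 measured factors that release P-TEFb or act in elongation 3 were higher and 0 lower (median log2 ratio 0.14). Of all measured genes 8.15% were higher and 12.3% lower. SRSF2, a splicing factor tied to P-TEFb release from 7SK, went from 4923 to 10058 counts, 2.12-fold higher (2.05 to 2.20). SRSF1, a related splicing factor, was 1.88-fold higher (1.83 to 1.93). ELL2, a subunit of the super elongation complex, named here after its value was seen, was 1.91-fold higher (1.78 to 2.05). Among 5 RNA-binding proteins of the released 7SK particle 1 was higher, the helicase DHX9 at 1.80-fold (1.75 to 1.85), and 0 were lower, with a median of 0.40.

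None of the 6 SRP proteins was called, with log2 ratios from -0.18 to 0.22 and a median of 0.03. SRP54, the GTPase that binds signal peptides, had 2407 and 2048 counts (log2 ratio -0.18, -0.26 to -0.09). SRP14, which with SRP9 binds the Alu end of 7SL, had 4188 and 4658 counts (0.21, 0.15 to 0.27). The 6 genes of the SRP receptor and the translocon also had no call, with a median of 0.00 and values from -0.14 to 0.25.

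Of 11 proteins of RNase P and RNase MRP 1 was higher and 0 lower (median log2 ratio 0.16), against 8.15% and 12.3% of all measured genes. POP1, the largest shared subunit of both enzymes, went from 588 to 1128 counts, with a counting interval from 1.80-fold to 2.21-fold higher. The other 10 lay between -0.37 (RPP21) and 0.50 (POP7), among which POP7 is the partner of RPP25 on the RNA. No measured member of the 5 La-related proteins and RO60 was called (median 0.13), and none of 4 RNA capping and cap-modifying enzymes (median -0.07).

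Of 19 transcription factors of RNA polymerase III 1 was higher and 1 lower (median 0.02), against 8.15% and 12.3% of all measured genes. SNAPC1, a subunit of the complex that binds the promoters of 7SK, RPPH1, RMRP and the U RNAs, was the lower one. It had 448 and 276 counts, 1.56-fold lower (1.34 to 1.82). The other subunits were not called, with log2 ratios of -0.37 (SNAPC2), -0.29 (SNAPC3), -0.07 (SNAPC5) and 0.54 (SNAPC4). The 1 factor called higher was GTF3C4 of the factor TFIIIC, with a log2 ratio of 0.59 (0.47 to 0.70). It lay on the 1.5-fold line and was not called under 3 of the 4 other scalings. MAF1, the repressor of RNA polymerase III, had 2777 and 2527 counts (-0.08, -0.16 to -0.00).

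**Figure D4:**
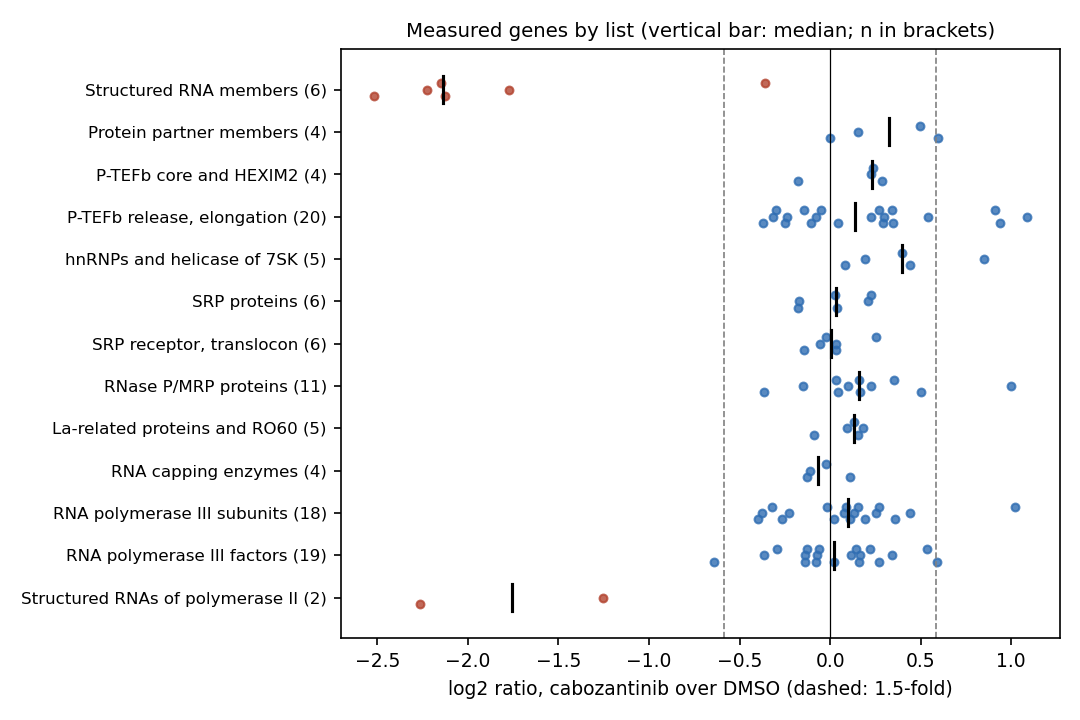
Log2 ratio of cabozantinib over DMSO for each measured gene of the structured RNAs, the protein partners and the related lists, with a black bar at each median and dashed lines at 1.5-fold. The structured RNA members (median -2.14) lie to the left, whereas the medians of the protein lists lie between -0.07 and 0.40. The 2 measured structured RNAs of polymerase II, SNORD3A and RNU1-2, also lie to the left (median -1.76), but RNU1-2 passed the filter only through DMSO.

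The DMSO library held 25025243 counts and the cabozantinib library 25505289, so that 1 CPM stands for about 25 counts. All 9 erythroid markers of K562 were measured, and of 10 markers of other cell types 5 were below 1 CPM in both libraries. Separate cultures of a group were not compared.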

How the data were processed

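Total RNA of 1 DMSO and 1 cabozantinib culture of K562 cells was the starting material for strand-specific TruSeq libraries, per the labels' protocols. Whether poly(A) RNA was then selected remains unknown, so the counts need not reflect the whole RNA of the cells. Each deposited count file lists unnormalized counts by Entrez gene ID. The aligner was Rsubread and the genome hg19, per the file headers, and hg19 and GRCh37 stand in the submitters' processing notes. The sources used here do not give the aligner's version, its treatment of multi-mapping reads or the strand setting used in counting. The authors' deposited table holds a score per gene, a posterior probability of differential expression, and a fold ratio. That ratio is cabozantinib over DMSO, as the counts show, whose log2 ratio had the same sign in 709 of 709 genes with at least 100 counts and a 2-fold difference. Its 4 other value columns name no sample and were not used.

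TMM scaling factors (DMSO 1.03, cabozantinib 0.971) came from edgeR 4.0.16 (R 4.3.3), and the log2 ratio used a pseudocount of 0.5. RPKM used the deposited gene lengths. Intervals came from scipy 1.17.1 in Python 3.11.15. The scripts were tested on simulated counts. The 10 genes and 12 related lists were chosen with earlier results of these data known. The named genes were the 10 members, CDK9, CCNT1, HEXIM2, SRP14, SRP54, POP1, MAF1, up to 2 called each way per list, the 3 non-coding genes closest to RN7SK, and others given as examples. Names and gene types of 23696 genes came from RefSeq (GRCh38.p14), by gene ID. RNA sequences were taken from GENCODE 29. Where a symbol had 2 transcripts there, the longer was printed. Alternatives covered scaling (DESeq2 1.42.0 size factors, total counts, protein-coding genes, upper quartile), pseudocount, filter, threshold, length trend and deposited fold. RN7SL3 and 4 U6 genes of the lists were not analysed here. Some genes of the lists and some sequences are not reported here.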

Additional observations from a re-analysis of the deposited data

How the results depend on the processing

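The 10 log2 ratios were recomputed under 7 alternatives each, 70 values in all, of which 67 kept their call, 2 lost it, 1 gained it and 0 called values changed sign. MEPCE lost its call under scaling by total counts (0.51) and by the upper quartile (0.58), and BCYRN1 gained one with the length trend removed (-0.80). RN7SK ranged from -2.40 to -2.22 and RPPH1 from -2.67 to -2.47. The count of lower structured RNAs, 5, was 3 with a filter of 5 CPM, because RPPH1 and RMRP are below it, and was 4 with RN7SL1 and RN7SL2 counted once, an alternative chosen after seeing the data. It was 6 with the length trend removed and with the lower fold threshold tried, which add BCYRN1. The count of higher protein partners, 1, was 0 under scaling by total counts, by the upper quartile and with a 2-fold threshold, and was 2 with the lower fold threshold tried. In the related lists 7 genes were higher and 3 lower, against 18 and 7 at that lower threshold and 2 higher at 2-fold, and 1 lower with a filter of 5 CPM. The difference of medians, -2.46, lay between -2.69 and -2.03 in every alternative run. Scaling by total counts moved all measured genes from 1022 higher and 1543 lower to 758 and 1824. No paired analysis was possible because each group holds 1 library. Leaving out a library was not possible for the same reason. Depth limits RPPH1 most, with 12 counts in the cabozantinib library.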
